A study of Mus musculus with 16 samples.

Results

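The mouse receptors that bind the Fc part of IgG were followed at the RNA level in whole kidney, through 5 genes. They were the inhibitory receptor gene *Fcgr2b*, the activating receptor genes *Fcgr1*, *Fcgr3*, and *Fcgr4*, and *Fcer1g*, which encodes the common gamma chain that carries the activating signal. A probe was taken as belonging to one of them when the transcript named for it in the array files was a transcript of that gene. This gave 6 probes of the 56605 on the array, 2 of them for *Fcgr2b* and 1 for each other gene, out of 22911 genes with a named probe. The filter on dim probes, which asked for a signal flagged as above background in 4 or more arrays, was passed by all 6, so they belonged to the 35628 probes tested.

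Kidneys came from 16 mice aged 6 months, 4 per genotype, and each mouse had its own one-color array from 100 ng of RNA. Wild-type (WT) mice were C57BL/6. *Fcgr2b-/-* mice, titled Fcgr2b-ko and described in the labels as the lupus mouse, were of the 129/C57BL/6 background, as were the double-deficient mice (Fcgr2b-ko, Sting-ko; written *Fcgr2b-/-.Sting gt/gt* in the study). The labels give no *Sting* genotype for the *Fcgr2b-/-* arrays, whereas the study's description of its kidney arrays names such mice as heterozygous, *Sting wt/gt*, so an intact pair of *Sting* alleles cannot be assumed. The *Sting gt/gt* mice (Sting-ko) were C57BL/6 and carried the Goldenticket allele, a functional knockout of the STING adaptor of cytosolic DNA sensing by a missense change, so the level of *Sting* RNA does not check this label. Absence of *Fcgr2b* and the 129/C57BL/6 background therefore went together in every array and cannot be told apart. The study's methods mention both purchased WT mice and littermate controls, and which of them gave the WT kidneys of the arrays is not stated. The loss was in all cells of the mouse rather than in one cell type. The study asked whether loss of *Sting* alters lupus in *Fcgr2b*-deficient mice, and here the question was what happened to the receptor family itself. Levels are log2 signal relative to the 75th percentile of the same array, so a value of 1 lies 2-fold above that percentile. Because a probe's brightness depends on its sequence, levels were compared between mice for one probe and not between genes. As a check of the tissue, 14 of 14 tubule and podocyte markers were well above background on all 16 arrays.

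As background, activating Fc gamma receptors capture IgG immune complexes on macrophages, monocytes, neutrophils, and natural killer cells. They signal through the ITAM motif of the gamma chain to Src-family kinases and Syk. The receptor encoded by *Fcgr2b* carries an inhibitory ITIM motif instead, which recruits the phosphatase SHIP1 and raises the threshold of activation, and on B cells it is the only IgG receptor. Mice without it on a permissive background develop autoantibodies and immune-complex glomerulonephritis. *Fcgr1* encodes the high-affinity receptor, whereas *Fcgr3* and *Fcgr4* encode low- to intermediate-affinity receptors, and *Fcgr4* binds mainly IgG2a/c and IgG2b.

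In the RefSeq gene order of assembly GRCm38.p6, *Fcgr2b*, *Fcgr4*, *Fcgr3*, and *Fcer1g* all lie on chromosome 1, with *Fcgr4* 3 genes, *Fcgr3* 11 genes, and *Fcer1g* 41 genes away from *Fcgr2b*. *Fcgr1* lies on chromosome 3. Every member except *Fcgr1* thus lies on the chromosome of the deleted gene, and which strain's alleles the *Fcgr2b*-deficient mice carried there was not tested. The promoters are shown because levels of the activating members varied together over the arrays. Each line holds the 150 bases just before the RefSeq start site (GRCm38.p6), read 5′ to 3′ on the gene's strand, with motif matches in capitals.
*Fcgr1*, chr3:96293970-96294119, minus strand: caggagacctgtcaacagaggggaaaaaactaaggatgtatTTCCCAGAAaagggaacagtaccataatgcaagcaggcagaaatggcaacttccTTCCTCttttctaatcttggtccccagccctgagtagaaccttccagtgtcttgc
*Fcgr3*, chr1:171059404-171059553, minus strand: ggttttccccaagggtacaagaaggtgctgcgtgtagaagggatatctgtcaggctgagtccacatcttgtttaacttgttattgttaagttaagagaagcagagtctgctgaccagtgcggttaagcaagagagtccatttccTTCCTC
*Fcgr4*, chr1:171018776-171018925, plus strand: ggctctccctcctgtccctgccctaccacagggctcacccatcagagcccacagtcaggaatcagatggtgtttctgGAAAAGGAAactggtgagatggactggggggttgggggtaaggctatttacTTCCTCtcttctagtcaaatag
*Fcer1g*, chr1:171234350-171234499, minus strand: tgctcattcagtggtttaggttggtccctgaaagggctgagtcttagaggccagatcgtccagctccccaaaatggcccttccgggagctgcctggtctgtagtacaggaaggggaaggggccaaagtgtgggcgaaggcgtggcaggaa
*Fcgr2b*, chr1:170976072-170976221, minus strand: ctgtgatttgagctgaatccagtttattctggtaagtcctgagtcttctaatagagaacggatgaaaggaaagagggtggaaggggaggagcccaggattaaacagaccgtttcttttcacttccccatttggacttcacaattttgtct

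Both strands were searched for 3 short motifs. GAGGAA, which reads TTCCTC on the other strand, is a core of sites for PU.1, the myeloid factor, TTCNNNGAA is the gamma-activated site bound by STAT dimers, and GAAANNGAA is a short form of the interferon-stimulated response element. In the *Fcgr1* window a gamma-activated site began 109 bases before the start site and a PU.1 core 55 bases before it. The *Fcgr4* window held an interferon-stimulated element beginning 73 bases before the start site and a PU.1 core 22 bases before it. For *Fcgr3*, which has 2 listed start sites, the PU.1 core began 6 bases before the first. No match was found in the *Fcer1g* and *Fcgr2b* windows. Of 32851 RefSeq promoters of the same length, 14.5% held the PU.1 core, 4.09% the gamma-activated site, and 3.95% the interferon-stimulated element. These are matches of letters, and binding was not measured.

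The inhibitory receptor had lower signal in mice without *Fcgr2b*, although its signal did not vanish. With the brighter probe, listed in the array files under NM_001077189, WT replicates 1 to 4 were at 2.13, 1.91, 1.60, and 1.14. The *Fcgr2b-/-* replicates were at 0.70, 0.02, 0.06, and 0.19, and the double-deficient replicates at −0.04, 0.50, −0.40, and −0.24. Every *Fcgr2b*-deficient array thus lay under the lowest WT array, and the 2 deficient genotypes overlapped each other. The second probe, listed under NM_010187, repeated this order at a lower brightness. It was at 0.50, 0.29, −0.11, and −0.37 in WT mice, −0.58, −1.37, −1.45, and −1.27 in *Fcgr2b-/-* mice, and −1.35, −0.77, −1.82, and −1.58 in double-deficient mice. The 8 deficient arrays lay below the 4 WT arrays for both probes, a pattern met by 27 of all tested probes (0.0758%). Both probes were still well above background on 16 of 16 arrays. Neither the place of the probes relative to the deleted part of the gene nor cross-reaction with the related *Fcgr3* was tested here, so the residual signal does not measure intact transcript.

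The *Sting gt/gt* mice, which should carry intact *Fcgr2b*, overlapped the WT mice only in part. Their brighter-probe levels were 1.54, 1.05, 0.70, and −0.19, and their second-probe levels −0.32, −0.53, −1.01, and −1.43. With either probe 3 of 4 arrays lay under the lowest WT array. At the other end, 1 *Sting gt/gt* array was at or under the highest deficient array with the brighter probe and 2 with the second. The order of the means was WT, *Sting gt/gt*, *Fcgr2b-/-*, and double-deficient for both probes. Each neighbouring pair in that order had overlapping arrays.

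**Figure D1:**
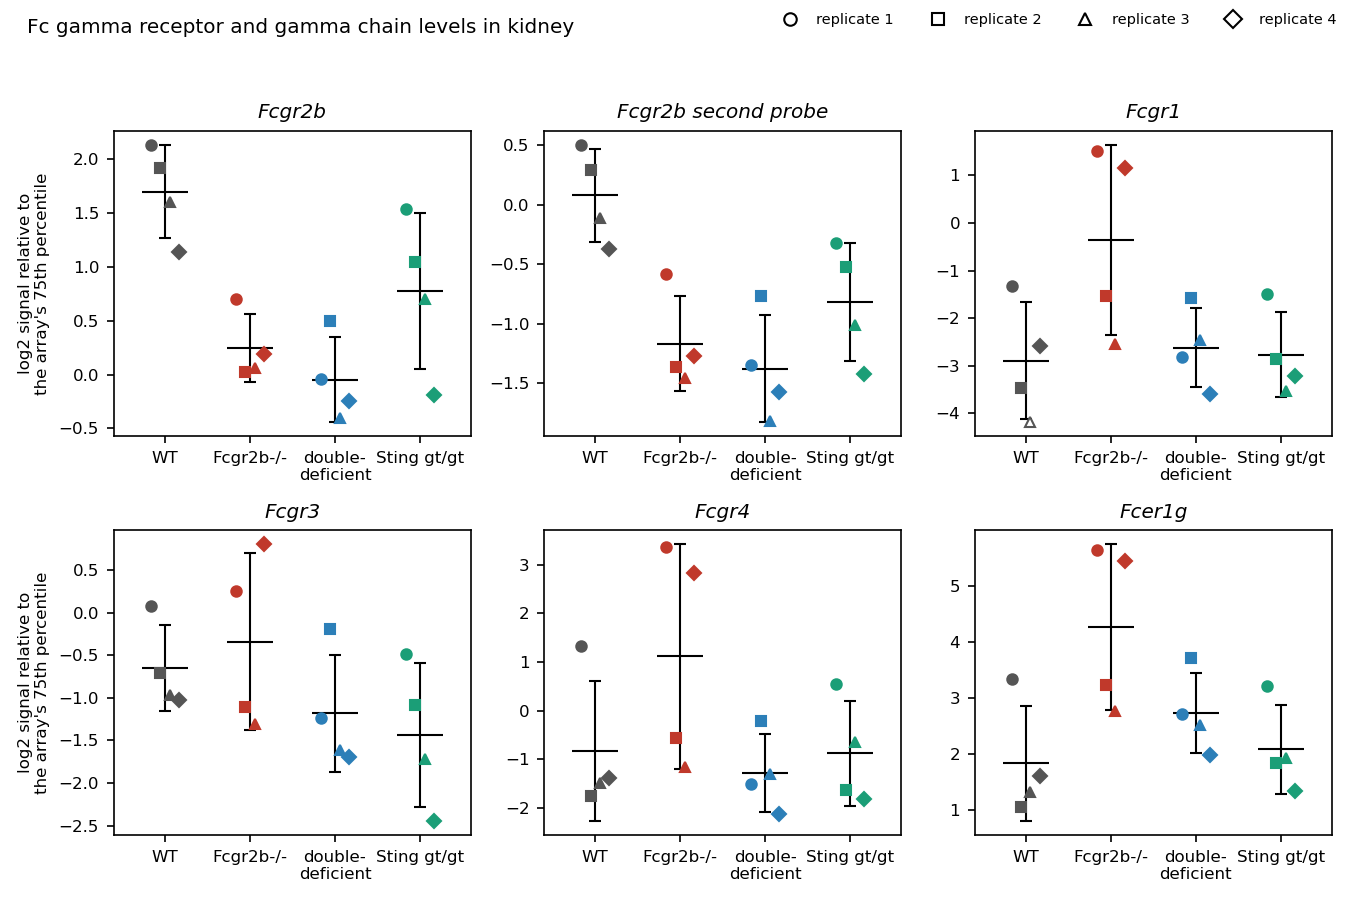
Level of each member probe (vertical axis, log2 signal relative to the array's 75th percentile) in WT, *Fcgr2b-/-*, double-deficient, and *Sting gt/gt* kidneys; each symbol is 1 mouse, its shape the replicate number, an open symbol an array not well above background, and the black bars the mean ± SD. The 8 *Fcgr2b*-deficient arrays sit below all 4 WT arrays for both *Fcgr2b* probes, whereas *Fcgr2b-/-* replicates 1 and 4 stand highest for the other 4 genes.

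In the limma fit over all tested probes, the log2 change of *Fcgr2b* from WT was −1.45 (SE 0.35, unadjusted p = 0.000801, adjusted p = 0.385) in the *Fcgr2b-/-* mice, a 2.73-fold lower signal. For the second probe it was −1.25 (SE 0.32, adjusted p = 0.532). From WT to double-deficient mice the changes were −1.74 (SE 0.35, limma adjusted p = 0.477) and −1.46 (SE 0.32, adjusted p = 0.947). Neither probe passed the call of an adjusted p under 0.05 with at least a 2-fold change. Within each slide the differences kept their sign, at −1.72 on slide 1 and −1.31 on slide 2 for the brighter probe between *Fcgr2b-/-* and WT mice. By the rank test that the study's methods name, groups of 4 that do not overlap reach the smallest two-sided exact p that the design allows, 0.0286. Both *Fcgr2b* probes did so between *Fcgr2b-/-* and WT mice and between double-deficient and WT mice. In the same direction, 0.617% of all probes did so in the first comparison and 0.23% in the second.

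Averaged over both *Sting* genotypes, the change with *Fcgr2b* loss was −1.14 (SE 0.25, limma adjusted p = 0.293) for the brighter probe and −0.90 (SE 0.23, adjusted p = 0.609) for the other. Of 28 alternative settings for the brighter probe, 2 passed, the rank test without adjustment and the fit without *Sting gt/gt* replicate 4. That array was the one that lay among the deficient arrays. Without it the change was −1.30 (limma adjusted p = 0.039), and 24 of 35628 probes were called. The array stands out by its own *Fcgr2b* value, so this pass is not separate support. For the second probe 0 of 27 alternatives passed. Loss of *Sting* on the WT background went with changes of −0.92 (SE 0.35, limma adjusted p = 0.732) and −0.90 (SE 0.32, adjusted p = 0.732) for the 2 probes. Added to *Fcgr2b* loss it went with −0.29 (SE 0.35) and −0.21 (SE 0.32), both at an adjusted p of 0.9999 in limma. Double-deficient and *Sting gt/gt* mice, both without functional *Sting* and differing in *Fcgr2b*, were apart by −0.82 (SE 0.35, limma adjusted p = 0.885) and −0.56 (SE 0.32, adjusted p = 0.885), and their arrays overlapped for both probes.

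The gamma chain gene *Fcer1g* had its highest levels in the *Fcgr2b-/-* kidneys. Its replicates 1 to 4 were at 5.63, 3.23, 2.76, and 5.44 there, against 3.33, 1.05, 1.32, and 1.61 in WT mice. The double-deficient mice were at 2.71, 3.71, 2.51, and 1.99 and the *Sting gt/gt* mice at 3.21, 1.84, 1.93, and 1.34. *Fcgr2b-/-* replicates 1 and 4 and double-deficient replicate 2 were above the highest WT array, WT replicate 1. The other 3 WT mice were lower than every *Fcgr2b*-deficient mouse. By mean level the order was *Fcgr2b-/-* (4.27 ± 1.48 SD), double-deficient (2.73 ± 0.72), *Sting gt/gt* (2.08 ± 0.80), and WT (1.83 ± 1.03; n = 4 each), and each neighbouring pair overlapped.

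*Fcgr1*, the high-affinity receptor, had the widest difference in mean between *Fcgr2b-/-* and WT mice among the members. Levels in *Fcgr2b-/-* mice were 1.50, −1.52, −2.55, and 1.16. They were −1.33, −3.46, −4.18, and −2.59 in WT, −2.82, −1.58, −2.47, and −3.60 in double-deficient, and −1.50, −2.85, −3.53, and −3.20 in *Sting gt/gt* mice. WT replicate 3, the lowest array of all, was the one array on which the probe was not well above background. Again *Fcgr2b-/-* replicates 1 and 4 stood above every other array, while replicates 2 and 3 lay within the range of the other genotypes. The means of double-deficient (−2.62), *Sting gt/gt* (−2.77), and WT mice (−2.89) were closer together than 1 SD of any of these groups.

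*Fcgr4*, the receptor of IgG2a/c and IgG2b, was at 3.37, −0.57, −1.16, and 2.83 in *Fcgr2b-/-* mice and at 1.32, −1.75, −1.50, and −1.39 in WT mice. In double-deficient mice it was at −1.51, −0.21, −1.30, and −2.12, and in *Sting gt/gt* mice at 0.54, −1.62, −0.64, and −1.81. The same 2 *Fcgr2b-/-* mice were the highest of all 16, followed by WT replicate 1. The *Fcgr2b-/-* group spanned 4.53 log2 units, a wider range than 98.8% of tested probes had among these 4 arrays (median 1.31). For *Fcgr1* and *Fcer1g* the ranges were 4.05 and 2.87, wider than 97.6% and 89.2% of probes. The *Fcgr2b-/-* mice were therefore far from uniform in these genes, and the mean of the group stands for 2 higher and 2 lower animals. Wide ranges were not particular to this group. Among WT mice the ranges of *Fcgr4*, *Fcgr1*, and *Fcer1g* were wider than those of 95.2%, 93.4%, and 86.0% of probes.

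*Fcgr3*, the low-affinity activating receptor of macrophages and natural killer cells, had the smallest difference in mean between *Fcgr2b-/-* and WT mice among the members. WT mice were at 0.07, −0.70, −0.97, and −1.02 and *Fcgr2b-/-* mice at 0.26, −1.11, −1.31, and 0.81. Double-deficient mice were at −1.23, −0.20, −1.61, and −1.69 and *Sting gt/gt* mice at −0.48, −1.08, −1.72, and −2.45. Here too *Fcgr2b-/-* replicates 1 and 4 were above the highest WT array, but the other 2 lay below the lowest. All 4 genotypes overlapped.

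Between *Fcgr2b-/-* and WT mice the log2 changes were 2.54 (SE 0.84) for *Fcgr1*, 2.44 (SE 0.68) for *Fcer1g*, 1.95 (SE 0.97) for *Fcgr4*, and 0.32 (SE 0.52) for *Fcgr3* in the limma fit. These correspond to 5.80-, 5.41-, 3.86-, and 1.25-fold higher mean signal. The smallest limma adjusted p among these 4 was 0.685, for *Fcer1g*, and 0 of the 6 member probes were called. In the same comparison 18 probes of all tested (0.0505%) were called, and 1192 had an unadjusted p under 0.05, as had *Fcgr1*, *Fcer1g*, and both *Fcgr2b* probes. Within slide 1 the differences were 2.77 for *Fcgr1*, 2.57 for *Fcer1g*, 2.09 for *Fcgr4*, and 0.30 for *Fcgr3*. Slide 2 held a single *Fcgr2b-/-* array, replicate 3, and gave 0.84, 1.30, 0.29, and −0.32. The change of *Fcgr3* turned to −0.066 without *Fcgr2b-/-* replicate 4.

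From *Fcgr2b-/-* to double-deficient mice all 6 member probes had a lower mean. The log2 change was −2.40 (SE 0.97) for *Fcgr4*, −2.26 (SE 0.84) for *Fcgr1*, −1.54 (SE 0.68) for *Fcer1g*, and −0.84 (SE 0.52) for *Fcgr3*, with a limma adjusted p of 0.9999 for each. None of all tested probes was called here (0%), with 645 at an unadjusted p under 0.05, among them *Fcgr1*, *Fcgr4*, and *Fcer1g*. No member separated the 2 groups completely, which 1.02% of all probes did in one direction or the other. The groups were unevenly spread over the 2 slides, with 3 of 4 *Fcgr2b-/-* arrays on slide 1 and 3 of 4 double-deficient arrays on slide 2. Among slide 1 arrays the differences were −3.39 for *Fcgr4*, −3.20 for *Fcgr1*, and −2.05 for *Fcer1g*, and among slide 2 arrays they were −0.050, −0.00013, and −0.026. Each of these rests on a single array in one group, double-deficient replicate 1 or *Fcgr2b-/-* replicate 3. With slide as a block the changes were −1.84, −1.67, and −1.09, and −0.43 for *Fcgr3*.

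**Figure D2:**
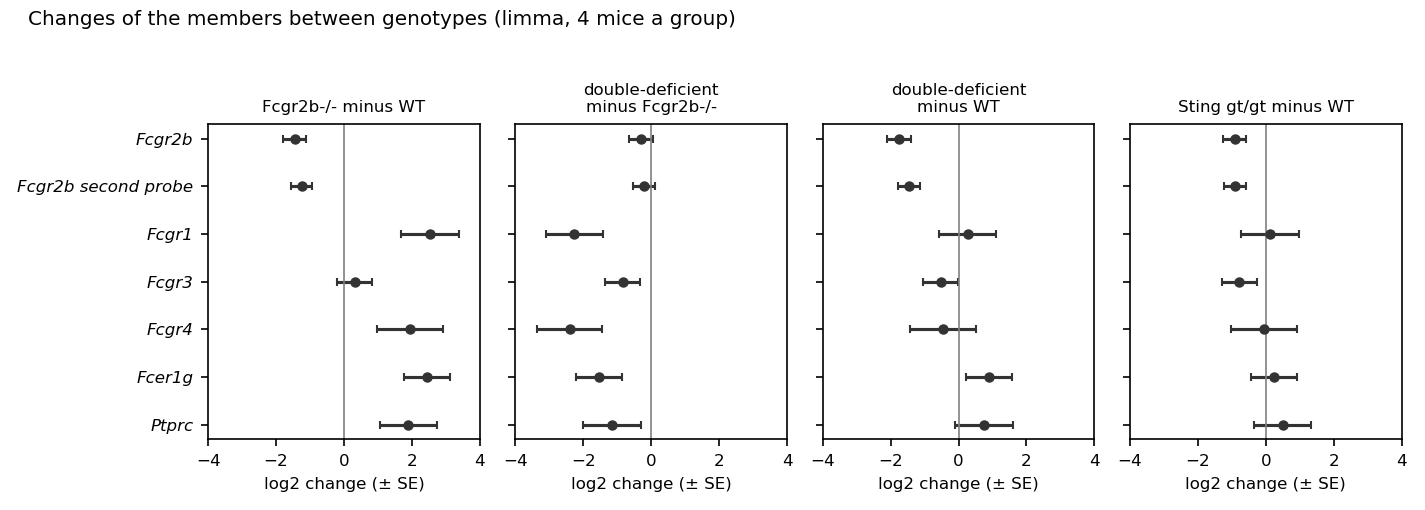
Log2 change of each member probe and of the leukocyte gene *Ptprc* (horizontal axis; points are limma estimates, bars ± SE) for *Fcgr2b-/-* minus WT, double-deficient minus *Fcgr2b-/-*, double-deficient minus WT, and *Sting gt/gt* minus WT. *Fcgr1*, *Fcgr4*, *Fcer1g*, and *Ptprc* lie to the right in the first comparison and to the left in the second. *Fcgr2b* lies to the left in each comparison with WT, that of *Sting gt/gt* mice included, and no member passed the adjusted test.

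Set against WT directly, the double-deficient mice differed by 0.27 (SE 0.84) for *Fcgr1*, −0.46 (SE 0.97) for *Fcgr4*, 0.90 (SE 0.68) for *Fcer1g*, and −0.53 (SE 0.52) for *Fcgr3*. In *Sting gt/gt* mice the changes from WT were 0.12 (SE 0.84), −0.052 (SE 0.97), 0.25 (SE 0.68), and −0.78 (SE 0.52) in the same order. Between double-deficient and *Sting gt/gt* mice they were 0.15, −0.40, 0.65, and 0.25, with the same errors. None of these passed the limma test (adjusted p of at least 0.732 for each), and each of the 3 comparisons called 0% of all probes. Several of the small changes switched sign when 1 array was left out. No member separated *Sting gt/gt* from WT mice (2.04% of all probes did) or double-deficient from *Sting gt/gt* mice (2.13%).

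Whether *Sting* loss acted differently with and without *Fcgr2b* was tested as an interaction over all 16 arrays. It was −2.38 (SE 1.19) for *Fcgr1*, −2.35 (SE 1.37) for *Fcgr4*, −1.79 (SE 0.96) for *Fcer1g*, −0.065 (SE 0.74) for *Fcgr3*, and 0.63 (SE 0.49) for *Fcgr2b*, with a limma adjusted p of at least 0.661 throughout and 0% of all probes called. Averaged over *Sting* genotypes, *Fcgr2b* loss went with 1.34 (SE 0.60) for *Fcgr1*, 1.54 (SE 0.48) for *Fcer1g*, 0.77 (SE 0.68) for *Fcgr4*, and 0.28 (SE 0.37) for *Fcgr3*, each at a limma adjusted p above 0.99, where 24 of all probes (0.0674%) were called.

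The 4 activating-side genes varied over the arrays together with a general leukocyte gene. *Ptprc*, which encodes CD45 of all leukocytes, was at 1.70, −1.40, −1.28, and −0.59 in WT mice and 3.56, −0.18, 0.08, and 2.55 in *Fcgr2b-/-* mice. It was at 0.10, 1.38, 0.23, and −0.29 in double-deficient and 1.55, 0.06, −0.64, and −0.53 in *Sting gt/gt* mice. The mice that were high for *Fcer1g* were thus also high for *Ptprc*. Its change between *Fcgr2b-/-* and WT mice was 1.89 (SE 0.85, limma adjusted p = 0.9996), beside 2.44 for *Fcer1g*. In whole kidney a change in the number of cells of a type and a change in RNA per cell cannot be told apart, and the part of leukocyte number in the values above was not tested.

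After subtraction of genotype means, the Pearson r with *Ptprc* over the 16 arrays was 0.97 for *Fcer1g* (Spearman rho 0.90), 0.95 for *Fcgr1* (0.95), 0.95 for *Fcgr4* (0.86), 0.85 for *Fcgr3* (0.73), and 0.63 for *Fcgr2b* (0.58). Among the members, *Fcgr4* and *Fcer1g* went together most closely (r 0.98, rho 0.97), followed by *Fcgr1* with *Fcer1g* (0.95, 0.89) and *Fcgr1* with *Fcgr4* (0.93, 0.85). *Fcgr2b* was nearest to *Fcgr3*, with r 0.79 and rho 0.86 for the brighter probe and 0.80 and 0.86 for the second. Its r with the gamma chain was 0.65. The 2 *Fcgr2b* probes had r 0.95 with each other. Leaving out the 2 arrays farthest from the median of the first gene left r at 0.97 for *Fcgr4* with *Fcer1g* and 0.93 for *Fcgr1* with *Fcer1g*. In these 21 pairs the points share the array, its scaling, and the mix of cells in the tissue, so the coefficients are a description.

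**Figure D3:**
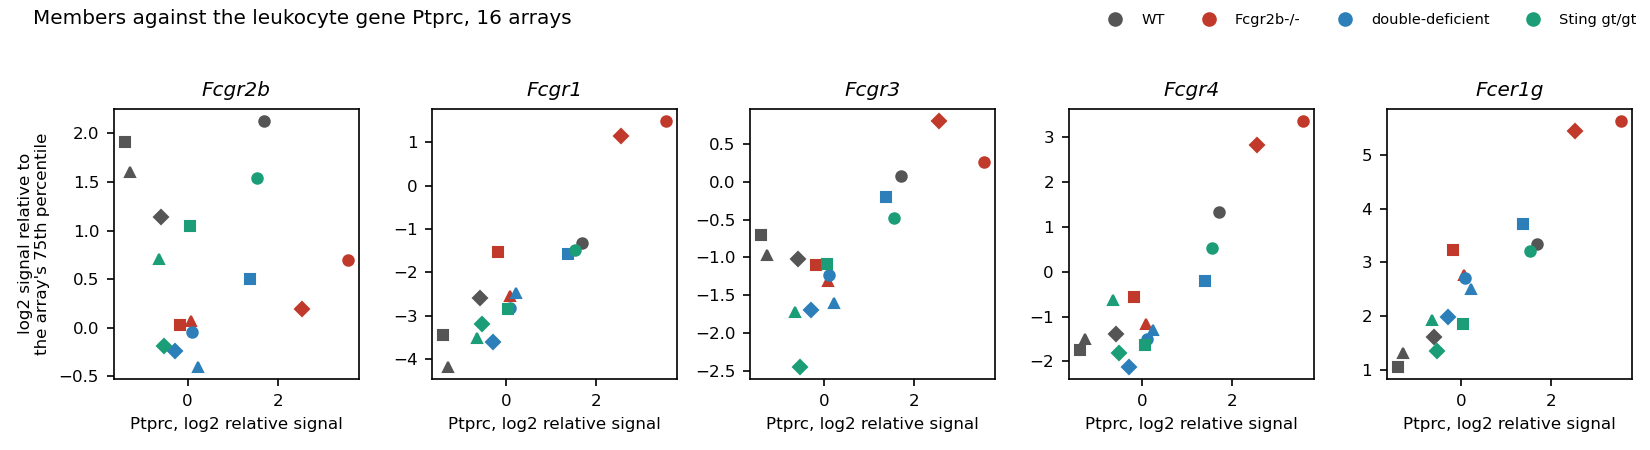
Level of *Fcgr2b* (brighter probe), *Fcgr1*, *Fcgr3*, *Fcgr4*, and *Fcer1g* (vertical axes) against that of the leukocyte gene *Ptprc* (horizontal axes) on the 16 arrays, both as log2 signal relative to the array's 75th percentile; colors are genotypes and symbol shapes replicate numbers. The 4 activating-side genes are higher on arrays with more *Ptprc*, and for *Fcgr2b* 3 of the 4 WT arrays are at the top.

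Because *Fcer1g* followed the leukocyte gene so closely, each receptor was also read relative to *Fcer1g* of the same array, a measure chosen after the levels had been seen. On this measure *Fcgr3* separated WT from *Fcgr2b*-deficient arrays, as *Fcgr2b* did. Relative *Fcgr3* was −3.26, −1.76, −2.28, and −2.63 in WT mice, −5.38, −4.33, −4.07, and −4.63 in *Fcgr2b-/-* mice, and −3.95, −3.90, −4.12, and −3.68 in double-deficient mice. All 8 deficient arrays lay below the 4 WT arrays. The *Sting gt/gt* mice had a mean in between, with values of −3.69, −2.93, −3.65, and −3.79. Relative *Fcgr2b* gave the same separation with both probes. Relative to *Fcer1g*, 1393 probes (3.91%) separated in this way, and no test was made of the separation. *Fcer1g* itself had a mean above WT by 2.44 log2 units in *Fcgr2b-/-* and 0.90 in double-deficient mice. Subtracting it therefore lowers relative values in both groups. Before the subtraction, *Fcgr3* levels overlapped between WT and both deficient groups.

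Relative *Fcgr4* lay wholly below WT only in the double-deficient group, which overlapped the *Fcgr2b-/-* group. It was −4.22, −3.91, −3.81, and −4.11 in double-deficient mice, all below the WT values of −2.01, −2.80, −2.82, and −3.00, as 4.09% of probes were. In *Fcgr2b-/-* mice it was −2.26 and −2.61 in replicates 1 and 4 and −3.80 and −3.92 in replicates 2 and 3, spanning the WT and the double-deficient values. Relative *Fcgr1* overlapped between all genotypes, with means of −4.72 in WT, −4.62 in *Fcgr2b-/-*, −5.35 in double-deficient, and −4.85 in *Sting gt/gt* mice.

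**Figure D4:**
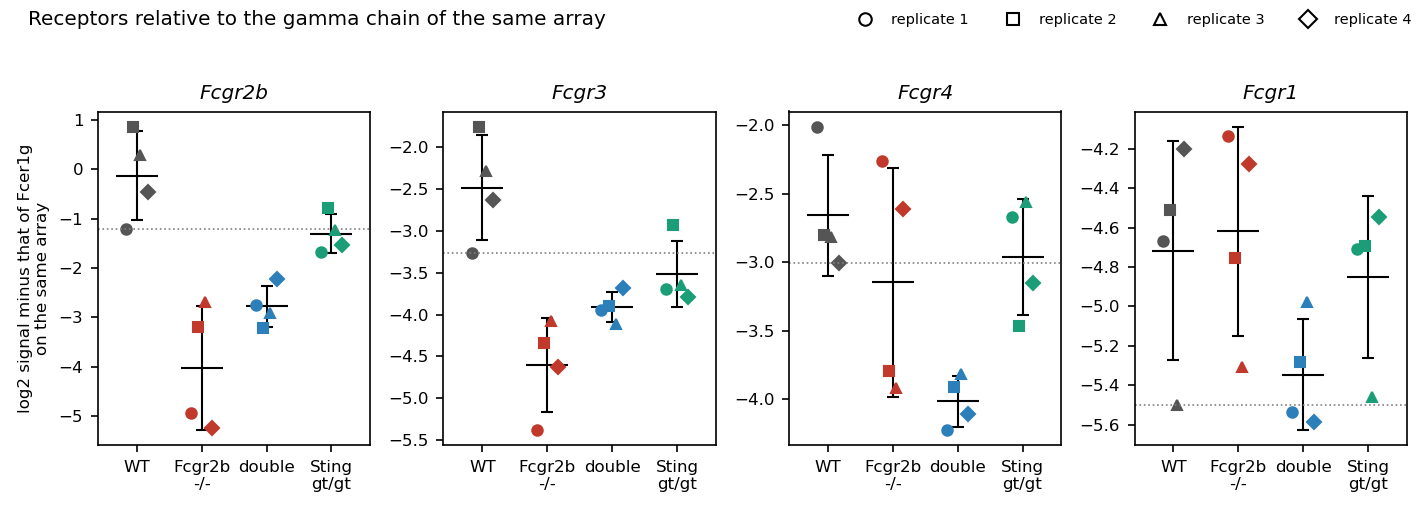
Log2 signal of *Fcgr2b* (brighter probe), *Fcgr3*, *Fcgr4*, and *Fcgr1* minus that of *Fcer1g* on the same array (vertical axes) by genotype; each symbol is 1 mouse, its shape the replicate number, black bars the mean ± SD, and the dotted line the lowest WT array. All 8 *Fcgr2b*-deficient arrays are below the line for *Fcgr2b* and *Fcgr3*, only the double-deficient group is wholly below it for *Fcgr4*, and *Fcgr1* overlaps throughout.

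The receptors of other immunoglobulin classes and the IgG transporter were read as the nearest relatives. Of 13 such genes 11 were tested, with a median log2 change of −0.15 between *Fcgr2b-/-* and WT mice against −0.055 over all probes, and 0 were called. *Fcgrt*, the neonatal receptor that carries IgG across epithelia, changed by −0.15 (SE 0.57) and *Pigr*, the transporter of polymeric IgA and IgM, by 0.28 (SE 0.64); both were named for their role after their values were seen. The values furthest from 0 were 2.28 (SE 0.92) for *Ms4a2*, the beta chain of the IgE receptor, 1.81 (SE 0.67) for *Fcrls*, and 1.80 (SE 0.80) for *Fcrl1*, each at a limma adjusted p of 0.9996. *Ms4a2* was well above background on 2 of 4 WT arrays and *Fcrl1* on 1 of 4.

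Receptors and adaptors that use ITAM signalling, many of them partners of the gamma chain, contained the one gene of the pathway lists that passed the test. *Clec4e*, the gamma-chain-coupled C-type lectin Mincle, rose from WT to *Fcgr2b-/-* mice (limma adjusted p = 0.0102). Its probe was well above background on 1 of 4 WT, 4 of 4 *Fcgr2b-/-*, 4 of 4 double-deficient, and 0 of 4 *Sting gt/gt* arrays, so the fitted log2 change of 6.33 (SE 0.80) sets measured arrays against mostly dim ones and its size is not a measured fold. Averaged over *Sting* genotypes, a comparison that includes these same arrays, it also passed (limma adjusted p = 0.00203), with no size given for the same reason. Between *Fcgr2b-/-* and WT mice, however, 0 of all probes were called without WT replicate 2, 3, or 4 or without *Fcgr2b-/-* replicate 4. With only the groups compared in the fit, 0 were called too. Of 14 tested genes in the list 13 had a higher mean in *Fcgr2b-/-* than in WT mice, 9 by at least 2-fold, and 1 was called. The median was 1.72 there, −1.20 from *Fcgr2b-/-* to double-deficient mice, and 0.42 from WT to double-deficient mice, where over all probes it was −0.055, 0.055, and 0.003. Between *Fcgr2b-/-* and WT mice, 43.4% of all probes had a higher mean and 4.33% were at least 2-fold higher.

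Of the 34 genes of the activating cascade below the receptors, from Src-family kinases to the NADPH oxidase, 30 had a higher mean in *Fcgr2b-/-* than in WT mice and 16 by at least 2-fold, but 0 were called. The median was 0.82. Among the largest were *Pik3r5*, a regulatory subunit of PI3-kinase gamma, at 2.91 (SE 0.77, limma adjusted p = 0.585), and the myeloid Src-family kinase *Fgr* at 2.81 (SE 0.65, adjusted p = 0.342). *Pik3r5* was well above background on 1 of 4 WT arrays. The *Fgr* groups did not overlap. *Syk*, the kinase that docks on the gamma chain and is named here for that role, was at 2.24 (SE 0.59, adjusted p = 0.582). From *Fcgr2b-/-* to double-deficient mice the median of the list was −0.86, and 16 of 34 were at least 2-fold lower, as were 2.64% of all probes, with 0 called.

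On the inhibitory side downstream of the ITIM the log2 changes were smaller. Of 11 tested genes 9 had a higher mean in *Fcgr2b-/-* than in WT mice, 2 by at least 2-fold, with a median of 0.46 and 0 called. For 2 of the 11, *Dok1* among them, all *Fcgr2b-/-* arrays lay above all WT arrays. The same held for 4 of the 34 activating genes and for 221 of all 35628 probes. *Inpp5d*, which encodes SHIP1, was at 1.50 (SE 0.68), and the adaptors *Dok1* and *Dok2* at 1.23 (SE 0.42) and 0.90 (SE 0.33), all with a limma adjusted p of 0.9996. *Pag1* was above background on 0 of 16 arrays. Other receptors that carry ITIMs did not share the low values of *Fcgr2b*. Of 20 tested, 19 had a higher mean and 11 were at least 2-fold higher, with a median of 1.33 and 0 called. The highest were *Pilra* at 3.37 (SE 0.81, adjusted p = 0.385), *Pirb* at 3.004 (SE 0.78, adjusted p = 0.553), and *Lilrb4a* at 2.83 (SE 1.004, adjusted p = 0.9996).

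Marker lists of the cells that carry these receptors gave the following values. Monocyte markers held 2 called genes, *Cd300e* at 4.56 (SE 0.70, limma adjusted p = 0.0309) and *Treml4* at 3.62 (SE 0.61, adjusted p = 0.0484), both of which rose from WT to *Fcgr2b-/-* mice and are known from non-classical monocytes. In this comparison no probe at all passed without WT replicate 2, 3, or 4 or without *Fcgr2b-/-* replicate 4, where the smallest adjusted p in limma was 0.0543 to 0.0731. With the *Sting* genotypes averaged, both passed at 3.52 (limma adjusted p = 0.0103) and 2.71 (adjusted p = 0.0212). The averaged comparison includes the same *Fcgr2b-/-* and WT arrays, so it is not separate support. Over all probes it called 20 to 30 whichever array was left out, and whether *Cd300e* and *Treml4* stayed among them is not given here. The monocyte median was 1.88 over 10 tested genes, of which 8 were at least 2-fold higher.

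The macrophage list had a median of 2.17 over 15 tested genes, 11 of them at least 2-fold higher and 0 called. *Lyz2*, lysozyme M, was at 3.21 (SE 0.80), *Mrc1*, the mannose receptor, at 2.68 (SE 1.05), and *Adgre1*, F4/80, at 2.56 (SE 0.78). The mean level of the macrophage list per array ran from 0.05 to 1.86 in WT, 1.44 to 3.77 in *Fcgr2b-/-*, 0.94 to 2.06 in double-deficient, and 0.74 to 2.03 in *Sting gt/gt* mice, and of its 16 genes *Cd163* was well above background on 2 arrays. All 7 general leukocyte genes had a higher mean in *Fcgr2b-/-* than in WT mice (median 1.89, 0 called), and their mean level ran from −0.64 to 1.46 in WT and from 0.63 to 3.63 in *Fcgr2b-/-* mice. These lists moved with *Fcgr1*, *Fcgr4*, and *Fcer1g*, and their part in the receptor values was not tested.

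Lymphocyte markers showed smaller medians. The B cell list, whose cells express *Fcgr2b* and no activating receptor, had a median of −0.02 over 8 tested genes. Of its 10 genes, 4 were well above background on all 16 arrays, whereas *Cd79a* and *Blk* were so on 0 of 16. The medians were 0.73 for both T cells (9 tested) and natural killer cells (6), 0.72 for neutrophils (9), 0.44 for dendritic cells (9), and 0.21 for plasma cells (7). They were 0.73 for mast cells and basophils (5), 0.98 for platelets (5), and 0.27 for endothelium (7). Tubule and podocyte genes had a median of −0.22 over 14. No gene of these lists was called. Of 9 immunoglobulin genes 1, *Jchain*, had a named probe, at −0.60 (SE 1.05), so the level of IgG transcripts themselves was not read.

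**Figure D5:**
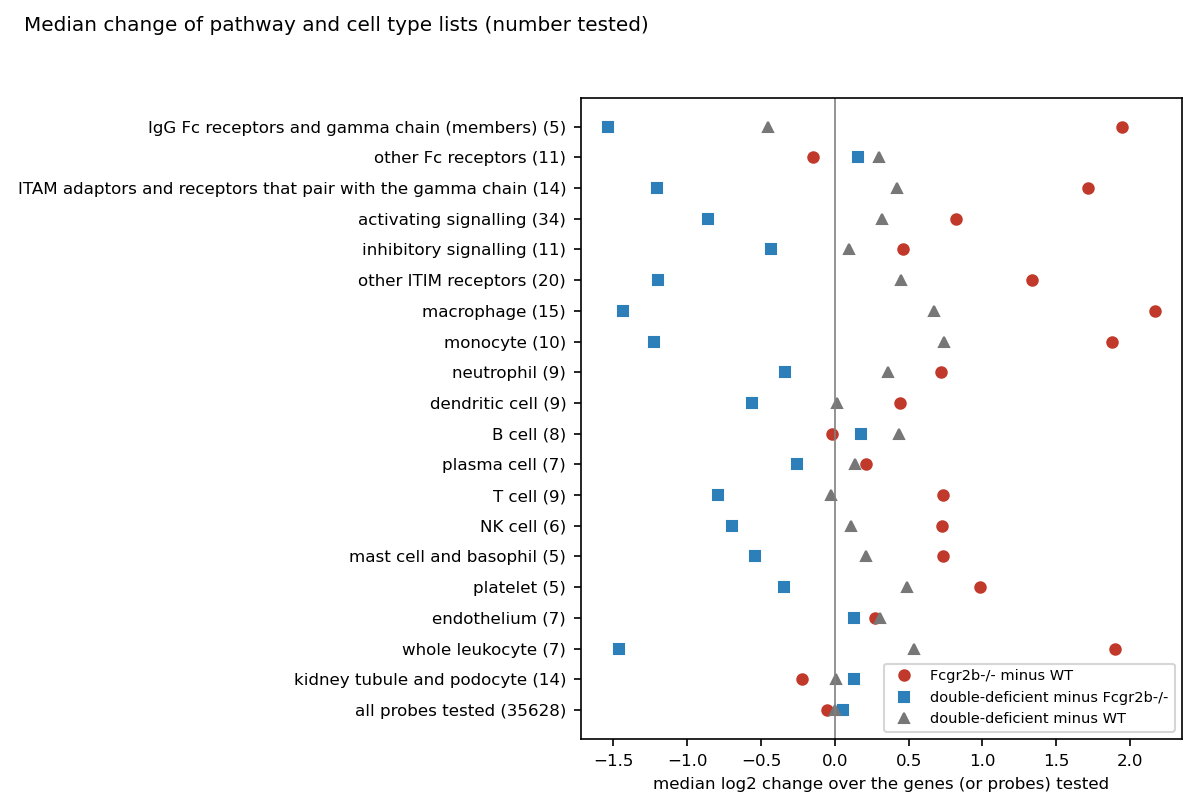
Median log2 change (horizontal axis) over the tested genes of each pathway or cell type list, with the number tested in brackets, for *Fcgr2b-/-* minus WT, double-deficient minus *Fcgr2b-/-*, and double-deficient minus WT; the last row gives all probes. Macrophage, monocyte, leukocyte, and ITAM lists have the widest excursions, at 2.17, 1.88, 1.89, and 1.72 in the first comparison, next to 1.95 for the 5 receptor genes.

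Among 16381 genes compared, those whose level followed each member most closely over the 16 arrays, after removal of genotype means, were listed by Pearson r. For *Fcer1g* they were *C1qc* (0.99), *Ly86* (0.99), *Clec4b1* (0.99), *Gpr65* (0.99), and *Cd300c2* (0.99). For *Fcgr4* they were *Cyp4f18* (0.99), *Nkg7* (0.98), *Fcer1g* (0.98), *Ifi47* (0.98), and *Ifitm6* (0.98). For *Fcgr1* they included *Batf* (0.97), *Cyria* (0.97), *Casp12* (0.96), and *Ms4a7* (0.96), and for *Fcgr3* they were *Ptprcap* (0.97), *Sh2d1b1* (0.93), *Lyz2* (0.93), *Gimap7* (0.93), and *Cd53* (0.93). *Fcgr2b* had a different company, with *Acp2* (0.94), *Zik1* (0.93), *Tex30* (0.93), *Hnrnpa3* (0.92), and *Commd2* (0.92). Of the 5 genes nearest to *Fcgr2b*, none differed by as much as 0.30 log2 units between *Fcgr2b-/-* and WT mice, whereas the 5 nearest to *Fcer1g* differed by 1.45 to 2.55. Over all tested probes the median absolute change in this comparison was 0.242.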

How the data were processed

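Kidney RNA of 16 mice was read on one-color Agilent arrays, 1 mouse per array. The authors deposited the scanner output (Agilent Feature Extraction 11.0 per the labels), whose processed intensity is background-subtracted but not scaled between arrays, and a table of log2 values whose making is not given in the sources used here. Its medians were identical for arrays with the same replicate number (5.54, 4.93, 5.14, and 5.38 for numbers 1 to 4) and differed between numbers, and it served as an alternative. Control spots and outlier spots (76 to 109 per array) were left out, log2 intensities of one probe were averaged, and the array's 75th percentile was subtracted. No spot was saturated, 28441 to 35564 probes per array were well above background, and the number of arrays limits the precision. Probes well above background on at least 4 arrays were fitted with limma 3.58.1 (R 4.3.3), with a mean per genotype, eBayes, and Benjamini-Hochberg adjustment over 35628 probes; a call needed an adjusted p under 0.05 and 2-fold. The fit was tested on simulated data. Of all probes 58.3% were named through a RefSeq table (GRCm38.p6), and a gene was given by its brightest probe. Both slides and their scan times changed together. The members and gene lists were chosen with earlier results of these data known. Genes named were the members, each list's called genes or otherwise up to 3 with the largest change between *Fcgr2b-/-* and WT mice, and the 5 genes most like each member. Some genes that these rules select are not reported here. Labels give each mouse its own array, so p-values measure the spread between mice. Alternatives were normexp background (offset 50), quantile and median scaling, the authors' table, 2 other filters, only the groups compared, trend and robust eBayes, the Mann-Whitney test of the methods, no fold threshold, the median of a gene's probes, slide and replicate number as blocks, and each array left out. Python 3.11.15 and pandas 2.3.3 were used.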

Additional observations from a re-analysis of the deposited data

Results flagged for a closer look

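*Fcgr4* in WT replicate 1 stood apart from the other WT mice. Its level was 1.32, against −1.75, −1.50, and −1.39, and the gap to the nearest of them was 0.884 of the range of the group, above Dixon's 95% critical value for 4 samples. It was the 1 such case among 24 groups checked (6 probes in 4 genotypes), and chance alone marks about 1 in 20 groups. *Ptprc* of the same mouse was 1.70, the highest of the WT mice. Without this mouse the log2 change of *Fcgr4* from WT was 0.26 rather than −0.46 in double-deficient mice and 0.67 rather than −0.052 in *Sting gt/gt* mice, none of them past the test.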

How the results depend on the processing

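Of 1180 alternative values for 42 member changes, 1145 kept their direction and 35 reversed, 25 of these when an array was left out, and 7 passed the threshold. With the Mann-Whitney test without adjustment, 2 member probes were called in place of 0 between *Fcgr2b-/-* and WT mice, double-deficient and WT mice, and for averaged *Fcgr2b* loss (there *Fcgr2b* and *Fcer1g*), where leaving out single arrays gave 0 to 1. Over all 35628 probes the same unadjusted test called 144, 63, and 211 in these comparisons, in the same order. With adjustment it called 0 in each. *Fcgr1* became −0.014 (normexp) from WT to double-deficient, −0.13 (quantile), −0.12 (median scaling), and −0.12 (authors' table) from WT to *Sting gt/gt*, and −0.019 (normexp) from *Sting gt/gt* to double-deficient mice. The second *Fcgr2b* probe became 0.041 with slide as a block from *Fcgr2b-/-* to double-deficient mice, and the *Fcgr3* interaction 0.048 (quantile), 0.22 (median scaling), 0.069 (authors' table), and 0.35 (slide). Leaving out single arrays gave, for *Fcgr3* from WT to *Fcgr2b-/-*, −0.066 to 0.64, and for its interaction −0.40 to 0.32. From WT to double-deficient mice it gave −0.16 to 0.79 for *Fcgr1* and −0.81 to 0.26 for *Fcgr4*. From WT to *Sting gt/gt* it gave −0.31 to 0.64 for *Fcgr1*, −0.53 to 0.67 for *Fcgr4*, and −0.12 to 0.76 for *Fcer1g*, and from *Sting gt/gt* to double-deficient −0.19 to 0.58 for *Fcgr1*, −0.087 to 0.57 for *Fcgr3*, and −0.76 to 0.071 for *Fcgr4*. The cause was not tested. In the scanner values same-numbered mice of different genotypes deviated together about as much as mice of other numbers, and the difference was not tested. Correlations were −0.60 to 0.69 between same-numbered arrays (median −0.058), with 11 of 24 over 0.1. Between arrays of other numbers they were −0.65 to 0.81 (median −0.034), with 28 of 72 over 0.1. In the authors' table, however, same-numbered arrays of all 4 genotypes had identical medians (5.54, 4.93, 5.14, and 5.38 for replicates 1 to 4), so its scaling went by replicate number. A replicate block changed no call of a member, leaving averaged *Fcgr2b* loss at −1.14 (limma adjusted p = 0.0837). Over all probes, the calls between *Fcgr2b-/-* and WT mice numbered 5 with normexp, 7 with the authors' table, 0 with only probes above background on all arrays or only the groups compared, and 0 to 37 without single arrays, the latter without *Fcgr2b-/-* replicate 2.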
